A study of Homo sapiens with 4 samples.

Results

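The transcripts described here are those of the human mitochondrial genome, taken as every row whose gene name begins with MT-, whatever its biotype. They numbered 36 of the 26733 rows of the deposited count table: 13 messenger RNAs, 2 ribosomal RNAs and 21 transfer RNAs. The annotation, GENCODE release 29 on GRCh38, lists 37 mitochondrial genes, and MT-TK, the lysine tRNA, was not analysed here. The rule reads gene names and no measured value.

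Polyadenylated RNA was sequenced from Jurkat cells, an established human line of T-cell acute lymphoblastic leukaemia (T-ALL), in 2 libraries of cells treated with GNE987 for 24 h and 2 libraries of untreated cells. GNE987 is a degrader: one end binds BET bromodomain proteins and the other recruits the ubiquitin ligase VHL. The dose is labelled as 25 nmol with no volume, and the labels name no vehicle for the untreated cells. All 4 libraries are of the 1 line, and whether the replicates were separate cultures is not labelled. The p-values therefore rest on the spread between libraries alone, which may be technical.

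Mitochondrial DNA is a small circle that encodes core subunits of respiratory complexes I, III and IV and of ATP synthase, together with the rRNAs and tRNAs that translate them inside the organelle. Both strands are copied by the polymerase POLRMT into long transcripts, most of which are then freed into single RNAs by removal of the tRNAs that lie between them. Most of the mRNAs receive poly(A) tails in the organelle, which complete the stop codon where the genome encodes only a part of it, and the protein pair LRPPRC and SLIRP keeps most of them stable.

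The treated libraries held 17024157 and 16041022 counts and the untreated ones 18938465 and 18441248, and 15910 genes were tested. Levels are given as CPM, the count per TMM-scaled library size, shares are of the unscaled library total, and a gene was called at an adjusted p under 0.05 in edgeR's quasi-likelihood test with Benjamini-Hochberg adjustment over all genes tested. The chi-square per degree of freedom over genes was 3.60 between the treated libraries and 24.0 between the untreated ones, so the untreated pair differed more. Untreated replicate 2 lay between untreated replicate 1 and both treated libraries for 13 of 13 mitochondrial mRNAs, at 14.7% to 30.9% of the way from untreated replicate 1 to the treated mean (median 21.7%). Counts of calls that rest on it are therefore also given without it, other than for mRNAs set against each other, where fold changes are given. Of the T-ALL markers, CD3E had 717 and 823 CPM in the treated libraries and 507 and 639 CPM in the untreated ones, and LCK had 60.1 and 62.1 CPM in the treated libraries and 951 and 783 CPM in the untreated ones.

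Mitochondrial transcripts held 8.41% and 8.84% of all counts in the treated libraries, against 4.57% and 5.67% in untreated replicates 1 and 2. Both treated libraries were above both untreated ones, and the mean share was 8.63% ± 0.303 with GNE987 and 5.12% ± 0.782 without (SD, n = 2 each), a ratio of 1.68. Without untreated replicate 2 the ratio was 1.89. The difference had an exact permutation p of 0.333 (two-sided), which is the smallest that 2 against 2 libraries can give. The 95% exact binomial intervals of these shares reached at most 0.0139 percentage points to either side, and they cover counting error only. Since the cells were profiled in bulk, more mitochondrial RNA per cell, less other RNA per cell and a change in which cells were left cannot be told apart.

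The mRNAs made up most of this, with 7.02% and 7.48% of all counts in the treated libraries, against 3.72% and 4.73% in the untreated ones, a ratio of 1.72 between the means. The rRNAs took 1.33% and 1.30% in the treated libraries, against 0.833% and 0.922% in the untreated ones, a ratio of 1.503. The tRNAs took 0.0649% and 0.0576% in the treated libraries, against 0.0181% and 0.0280% in the untreated ones, a ratio of 2.66. The 3 classes thus shared their direction, and in each the exact permutation p was again 0.333. Whether they differed in size was not tested. The tRNA ratio rests mostly on MT-TN, MT-TC and MT-TP. These had 4668, 4474 and 1445 of the 11044 tRNA counts in GNE987 replicate 1, and 1031, 1400 and 646 of 3428 in untreated replicate 1. Without untreated replicate 2 the ratios were 1.95 for mRNAs, 1.58 for rRNAs and 3.38 for tRNAs.

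**Figure D1:**
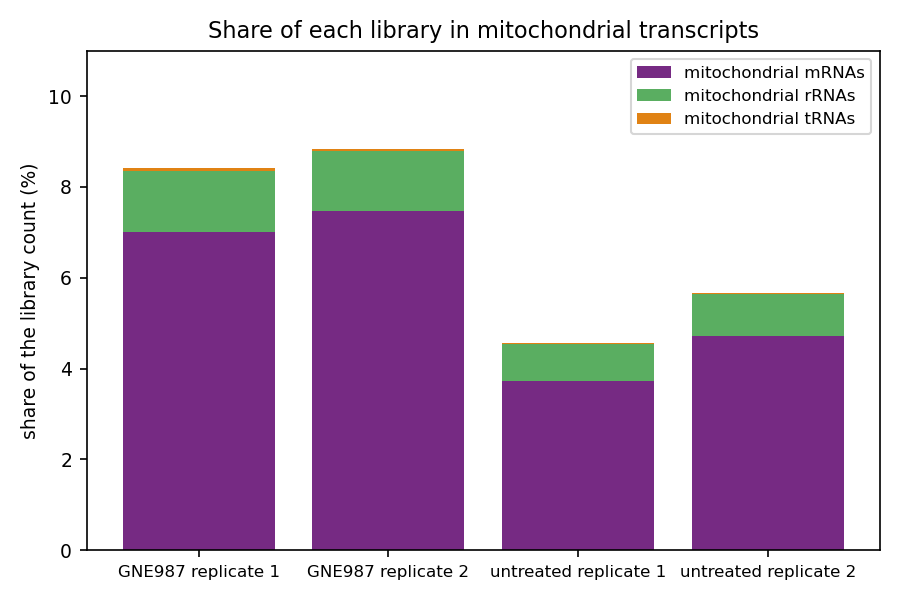
Share of each library's total count (%, vertical axis) in mitochondrial mRNAs, rRNAs and tRNAs, stacked, for the 4 libraries. The treated bars reach 8.41% and 8.84% and the untreated bars 4.57% and 5.67%, with the tRNAs as a thin band at the top.

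Gene by gene, 20 of the 28 mitochondrial transcripts that passed the filter on low counts were called higher with GNE987 and 0 were called lower. Over all genes tested, 34.4% were called higher and 37.2% lower. The 20 were 13 of 13 mRNAs, 2 of 2 rRNAs and 5 of 13 tested tRNAs. The mRNAs had a median log2 fold change of 1.18, between 0.64 for MT-CO3 and 1.70 for MT-ATP8, beside a median of -0.03 over all genes tested. Of the mRNAs 7 were called at least 2-fold higher, a size that 24.6% of all genes tested reached. In all 13 mRNAs and both rRNAs the treated libraries lay above the untreated ones without overlap, as they did in 44.6% of all genes tested. Without untreated replicate 2 the mRNAs called higher were again 13 of 13, with a median of 1.42, against 40.3% of all genes. With library size alone in place of TMM scaling, which shifted the median of all genes to -0.41, 12 of 13 mRNAs were called, against 25.8% of all genes. In the authors' deposited table, 13 mRNAs, 2 rRNAs and 4 tRNAs had an adjusted p under 0.05 and a higher level with GNE987, against 17.7% of its rows.

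**Figure D2:**
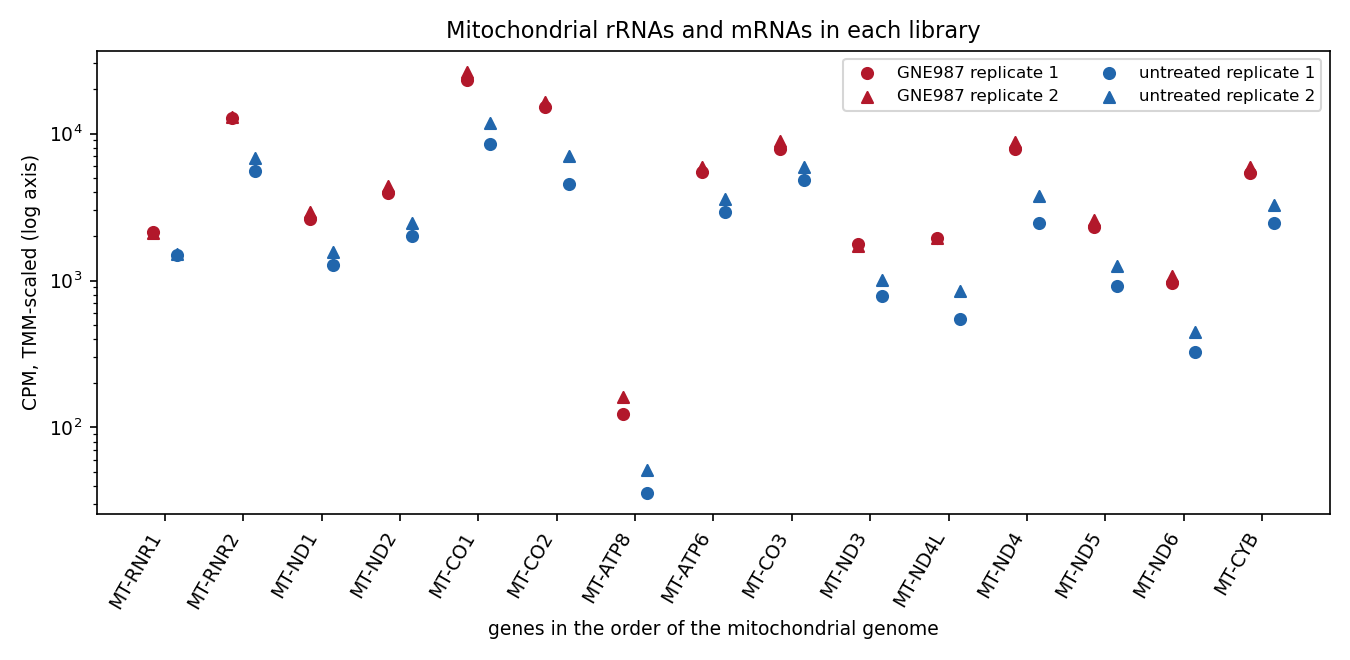
CPM after TMM scaling (log axis) of the 2 mitochondrial rRNAs and 13 mRNAs in each library, in the order of their genes on the mitochondrial genome. In every gene both treated points lie above both untreated points, and untreated replicate 2 lies above untreated replicate 1.

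Other groups of RNAs differed along with the mitochondrial ones. The counts of calls in each stand beside 34.4% higher and 37.2% lower over all genes tested. A list of 15 rows of RNAs usually made without a poly(A) tail, most of them histone messages, summed to 3221 and 3170 CPM in the treated libraries, against 34.2 and 678 CPM in the untreated ones. Of 14 tested 7 were called higher and 0 lower (median log2 fold change 3.18), where 34.4% of all genes were higher, and without untreated replicate 2 the counts were 14 and 0 (median 7.83), where 40.3% were higher. The linker histone gene HIST1H1C had 843 and 861 CPM in the treated libraries and 2.87 and 182 CPM in the untreated ones. It was not called (3.21 ± 1.56, edgeR adjusted p = 0.113). In untreated replicate 1, 3 rows of the list were at 0. A list of long RNAs, chosen as nuclear, summed to 838 and 791 CPM in the treated libraries and 337 and 456 CPM in the untreated ones, with 4 of 6 higher and 2 lower. Where these RNAs lay in the cell was not measured, so this sum is not a measure of nuclear RNA. SNHG1, a host gene of small nucleolar RNAs, carried this sum, with 711 and 669 CPM in the treated libraries and 193 and 314 CPM in the untreated ones. The rest of that list summed to 127 and 121 CPM in the treated libraries and 144 and 142 CPM in the untreated ones. That lower sum rested on OIP5-AS1, with 9.26 and 8.70 CPM in the treated libraries and 78.0 and 67.9 CPM in the untreated ones. MALAT1 was higher, with 52.8 and 44.6 CPM in the treated libraries and 25.2 and 26.8 CPM in the untreated ones (0.91 ± 0.14, edgeR adjusted p = 0.0031). T-ALL markers summed to 1691 and 1842 CPM in the treated libraries and 3040 and 2907 CPM in the untreated ones, with 2 of 12 higher and 9 lower, and 3 higher and 9 lower without untreated replicate 2. The counts for the long RNA and B-cell lists were the same without that library. Myeloid markers summed to 246 and 265 CPM in the treated libraries and 58.8 and 105 CPM in the untreated ones, with 4 of 8 tested higher and 0 lower, and 6 higher and 0 lower without untreated replicate 2. CST3 made up most of the myeloid sum in the untreated libraries, with 43.8 and 60.7 CPM there and 89.7 and 106 CPM in the treated ones. MPO and ITGAM were not called (edgeR adjusted p = 0.0702 and 0.0531). B-cell markers summed to 101 and 113 CPM in the treated libraries and 73.5 and 79.2 CPM in the untreated ones, with CD79A higher and BLK lower of 2 tested. CD79A alone had 97.1 and 107 CPM in the treated libraries and 40.9 and 51.1 CPM in the untreated ones, and the rest summed to 4.20 and 5.87 CPM in the treated libraries and 32.6 and 28.05 CPM in the untreated ones. ELANE was at 0 in both untreated libraries, CD33 in both treated ones, TYROBP and CD22 in GNE987 replicate 1, PAX5 in untreated replicate 1 and CD22 in untreated replicate 2; MS4A1 was not analysed here. The part of these RNAs and of the library differences in the mitochondrial result was not tested.

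Both rRNAs rose, MT-RNR2 by the larger estimate. MT-RNR2, the RNA of the large mitochondrial ribosomal subunit (chrM:1671-3229), had 12758 and 13057 CPM in the treated libraries and 5598 and 6872 CPM in the untreated ones. Its log2 fold change was 1.05 ± 0.17 (SE; edgeR adjusted p = 0.0039). MT-RNR1, the RNA of the small subunit (chrM:648-1601), had 2144 and 2110 CPM in the treated libraries and 1486 and 1521 CPM in the untreated ones. The groups did not overlap for either gene. The change of MT-RNR1 was 0.50 ± 0.13 (edgeR adjusted p = 0.0181). That call was lost with library size alone (0.13, adjusted p = 0.342), without a filter on low counts (0.35, adjusted p = 0.0752), without GNE987 replicate 1 (adjusted p = 0.131) and without GNE987 replicate 2 (adjusted p = 0.123). Per length, MT-RNR2 stood at 3.64 and 3.79 times the level of MT-RNR1 in the treated libraries, and at 2.30 and 2.76 times in the untreated ones. Relative to the mitochondrial mRNAs, with libraries scaled to their summed count, MT-RNR1 was lower, at -0.67 ± 0.19 (edgeR adjusted p = 0.00057), a call lost without a filter (adjusted p = 0.0566), without GNE987 replicate 1 (0.0823) and without GNE987 replicate 2 (0.184). Neither rRNA ends in a long poly(A) tail, so a poly(A) selection recovers only some of their molecules.

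Complex I, which takes electrons from NADH, has the largest number of mitochondrially encoded subunits, and all 7 of their mRNAs rose. MT-ND4 had 7913 and 8802 CPM in the treated libraries and 2473 and 3765 CPM in the untreated ones, a log2 fold change of 1.42 ± 0.24 (edgeR adjusted p = 0.0043). MT-ND4L, which shares one transcript with MT-ND4, had 1934 CPM in both treated libraries and 550.2 and 850.2 CPM in the untreated ones, a change of 1.47 ± 0.23. The pair moved together: per length, MT-ND4L was at 1.13 and 1.02 times MT-ND4 in the treated libraries, and at 1.03 and 1.05 times in the untreated ones.

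MT-ND6 is the only mRNA of the set that is carried by the light-strand transcript, and it is known to lack a long poly(A) tail. It had 959 and 1080 CPM in the treated libraries and 327 and 449 CPM in the untreated ones, a log2 fold change of 1.39 ± 0.20 (edgeR adjusted p = 0.0026). Its change thus lay within the range of the heavy-strand mRNAs. MT-ND5, its neighbour on the circle, had 2301 and 2595 CPM in the treated libraries and 917 and 1249 CPM in the untreated ones, a change of 1.18 ± 0.20. Libraries of this kind do not mark the strand, so reads of MT-ND6 and of heavy-strand RNA across the same bases cannot be told apart.

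The other 3 complex I mRNAs rose by less than 2-fold. MT-ND1 had 2642 and 2919 CPM in the treated libraries and 1281 and 1559 CPM in the untreated ones (0.97 ± 0.16, edgeR adjusted p = 0.0044). MT-ND2 had 3925 and 4385 CPM in the treated libraries and 2019 and 2445 CPM in the untreated ones (0.90 ± 0.17, adjusted p = 0.0058). MT-ND3 had 1774 and 1706 CPM in the treated libraries and 791 and 1013 CPM in the untreated ones (0.95 ± 0.17, adjusted p = 0.0053). In none of the 3 did the groups overlap. The call of MT-ND3 was lost without GNE987 replicate 1 (adjusted p = 0.0543) and that of MT-ND2 without GNE987 replicate 2 (adjusted p = 0.0576).

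MT-CYB encodes cytochrome b, the mitochondrially encoded subunit of complex III. It had 5352 and 5926 CPM in the treated libraries and 2480 and 3267 CPM in the untreated ones, a log2 fold change of 0.97 ± 0.19 (edgeR adjusted p = 0.0068). Its groups did not overlap, and without GNE987 replicate 2 the adjusted p was 0.0581.

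Complex IV, cytochrome c oxidase, has its catalytic core in MT-CO1 and MT-CO2, and these were the rows with the highest and second highest mean CPM in the whole table. MT-CO1 had 23012 and 26339 CPM in the treated libraries and 8461 and 11898 CPM in the untreated ones, a log2 fold change of 1.28 ± 0.22 (edgeR adjusted p = 0.0047). MT-CO2 had 15196 and 16308 CPM in the treated libraries and 4516 and 6990 CPM in the untreated ones, a change of 1.45 ± 0.24 (adjusted p = 0.0044). The mRNA of the structural core subunit MT-CO3 rose by less. It had 7808 and 8848 CPM in the treated libraries and 4817 and 5901 CPM in the untreated ones, a change of 0.64 ± 0.17 (adjusted p = 0.0213). Its groups did not overlap, but its call was lost with library size alone (0.27, adjusted p = 0.0704), without GNE987 replicate 1 (adjusted p = 0.0683) and without GNE987 replicate 2 (adjusted p = 0.129).

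Per length, MT-CO1 stood at 14924 and 17081 CPM per kb in the treated libraries, above MT-CO3 at 9959 and 11286 CPM per kb. In the untreated libraries MT-CO1 was at 5487 and 7716 CPM per kb and MT-CO3 at 6144 and 7527 CPM per kb, so these neighbours in the order did not differ beyond their spread. MT-CO1 was accordingly at 1.499 and 1.513 times MT-CO3 per length in the treated libraries and at 0.893 and 1.03 times in the untreated ones, and MT-CO2 at 2.23 and 2.11 times in the treated libraries, and at 1.07 and 1.36 times in the untreated ones. The libraries did not overlap in either ratio, and the exact permutation p was 0.333 (two-sided) for each of the 8 ratios computed other than MT-ND4L over MT-ND4 (1.00) and MT-CO2 over MT-ND6 (0.667). MT-CO2 was the highest mRNA per length in all 4 libraries, at 22217 and 23841 CPM per kb in the treated libraries and 6602 and 10219 CPM per kb in the untreated ones. MT-ATP8 was the lowest in all 4. By mean CPM per kb in the treated libraries the order from the top was MT-CO2, MT-CO1, MT-CO3, MT-ATP6, MT-ND4L, MT-ND4, MT-ND3, MT-CYB, MT-ND2, MT-ND1, MT-ND6, MT-ND5 and MT-ATP8. Of the neighbours in that order, MT-ND3 (5127 and 4930 CPM per kb) and MT-CYB (4690 and 5194 CPM per kb) overlapped between these libraries, and the others did not.

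ATP synthase has 2 mitochondrially encoded subunits, MT-ATP6 of the proton channel and the small MT-ATP8, and their reading frames overlap on a shared mRNA. Their overlap is shown because it joins genes of one transcript whose estimated changes differed, with the bases common to both genes in capitals. It covers 46 bases within chrM:8513-8572, on the heavy-strand transcript.
MT-ATP8 and MT-ATP6: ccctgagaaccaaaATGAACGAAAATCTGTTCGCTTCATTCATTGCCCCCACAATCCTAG
MT-ATP8 had 123 and 162 CPM in the treated libraries and 35.9 and 51.6 CPM in the untreated ones, a log2 fold change of 1.70 ± 0.23 (edgeR adjusted p = 0.0024). MT-ATP6 had 5476 and 5957 CPM in the treated libraries and 2935 and 3592 CPM in the untreated ones, a change of 0.81 ± 0.17 (adjusted p = 0.0083), and without GNE987 replicate 2 its adjusted p was 0.0688. Per length, MT-ATP8 stood at 0.0737 and 0.0897 times MT-ATP6 in the treated libraries, and at 0.0403 and 0.0473 times in the untreated ones. The counting tool is not given in the sources used here, and how it treats reads in an overlap sets the count of so short a gene. The level of MT-ATP8, and the difference between its change and that of MT-ATP6, are therefore uncertain.

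**Figure D3:**
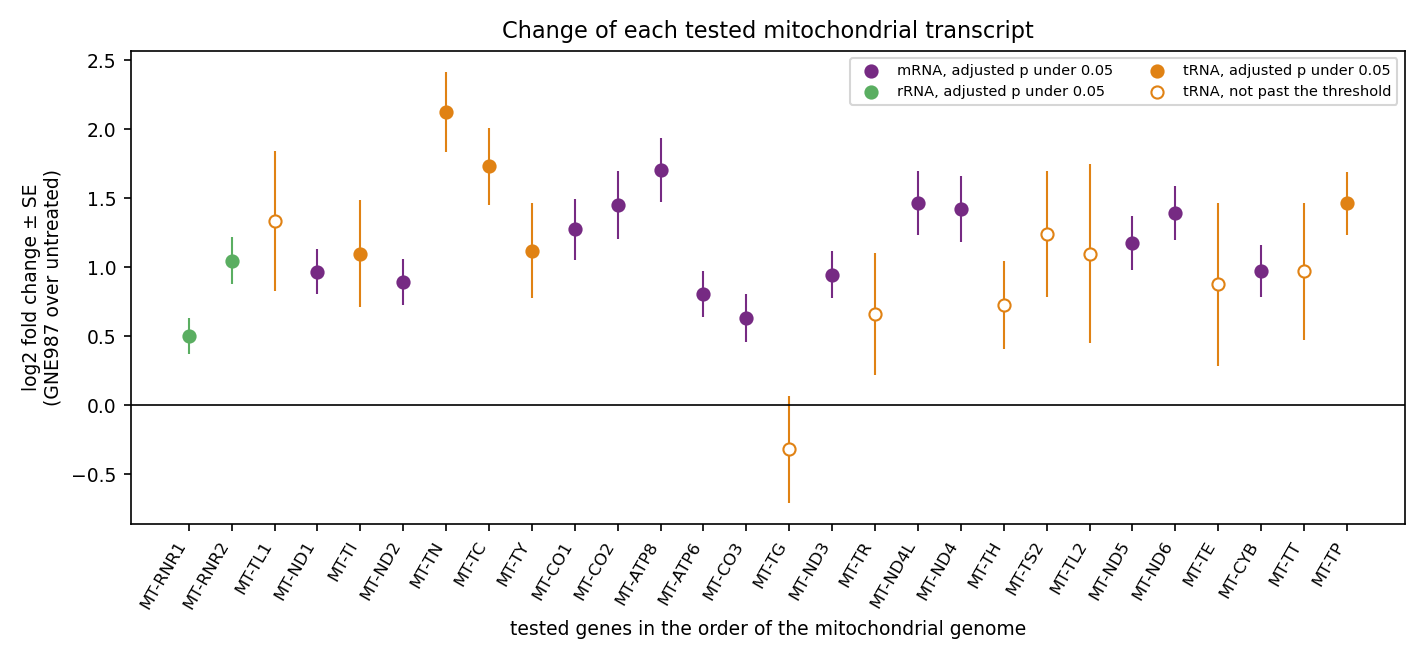
Log2 fold change (GNE987 over untreated, with its SE) of the 28 tested mitochondrial transcripts in the order of their genes, with filled points at an adjusted p under 0.05. All but MT-TG lie above 0, MT-TN is highest at 2.12, and the mRNAs lie between 0.64 and 1.70.

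Set against each other, 10 of the 13 mRNAs were not called to differ from the mitochondrial mRNA total. MT-CO1 held 29.3% and 30.3% of all mitochondrial mRNA counts in the treated libraries, against 26.8% and 27.7% in the untreated ones, and MT-CO2 held 19.4% and 18.8% in the treated libraries, against 14.3% and 16.2% in the untreated ones. MT-CO3 held 9.96% and 10.2% in the treated libraries, against 15.2% and 13.7% in the untreated ones. MT-ATP6 held 6.98% and 6.85% in the treated libraries, against 9.29% and 8.35% in the untreated ones. The groups did not overlap in any of these 4 shares, nor in that of any other of the 13 mRNAs. MT-ND5, for example, held 2.93% and 2.98% in the treated libraries, against 2.90% in both untreated ones. The lack of overlap therefore does not set these 4 apart. By complex the mean shares were 27.1% with GNE987 and 26.4% without for complex I, 59.0% and 57.0% for complex IV, 6.82% and 7.72% for complex III and 7.09% and 8.93% for ATP synthase.

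The test of these differences scaled each library to its summed mitochondrial mRNA count. A change is thus relative to the total of the 13 mRNAs, in which the gene itself is included. On that scale 1 of the 13 mRNAs was called higher and 2 lower, where 69.3% of all genes tested were called, 11.2% higher and 58.0% lower, since the scaling moved the median of all genes to -1.21. MT-CO2 was at 0.32 ± 0.12 (edgeR adjusted p = 0.0162), MT-ATP6 at -0.35 ± 0.15 (adjusted p = 0.0308) and MT-CO3 at -0.52 ± 0.14 (adjusted p = 0.00025). MT-CO1, at 0.13 ± 0.11, was not called (adjusted p = 0.278). MT-ATP8, at 0.56 ± 0.31, was not called (adjusted p = 0.0985), and neither were MT-ND4 at 0.29 ± 0.15 (adjusted p = 0.0691) and MT-ND4L at 0.34 ± 0.20 (adjusted p = 0.132). With the replicate number as a block, the call of MT-ATP6 was lost (adjusted p = 0.0601), as it was with robust estimation (0.0605). With either treated library left out none of these calls was kept, with MT-CO3 at -0.51 without GNE987 replicate 1 and at -0.54 without GNE987 replicate 2. Without untreated replicate 1, MT-CO2 was at 0.23, MT-ATP6 at -0.27 and MT-CO3 at -0.45. Without untreated replicate 2 they were at 0.42, -0.43 and -0.60. How many mRNAs were called thus depended on the library left out, and the shares over all genes in these settings are not given.

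**Figure D4:**
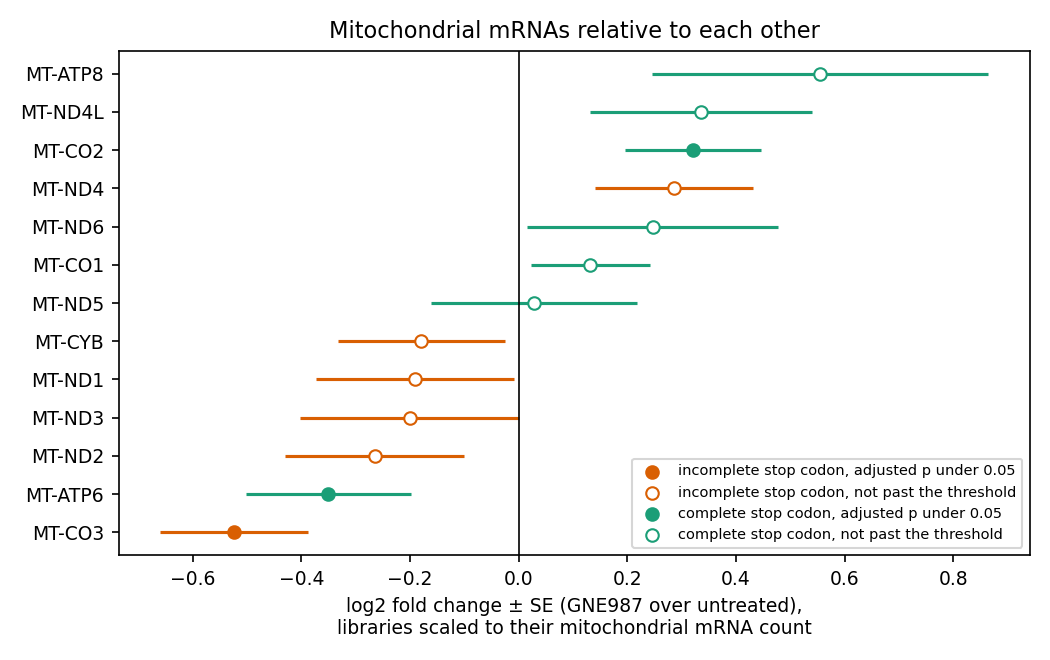
Log2 fold change (GNE987 over untreated, with its SE) of the 13 mitochondrial mRNAs with each library scaled to its mitochondrial mRNA count, coloured by whether the genome encodes a complete stop codon. MT-CO2 is the filled point above 0, MT-ATP6 and MT-CO3 the filled points below 0, and the colours overlap.

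The ends of the genes are shown because the poly(A) tail supplies the missing bases of the stop codon in some of these mRNAs and not in others. The last 15 bases of each gene are given in the sense of its RNA, from the GENCODE 29 transcripts, with the encoded part of the stop codon or stop position in capitals. Those shown run from the largest to the smallest change relative to the mitochondrial mRNA total.
MT-ATP8: cccccacaatccTAG
MT-CO2: gtatttaccctaTAG
MT-ND4: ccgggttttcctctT
MT-ATP6: cacgacaacacaTAA
MT-CO3: attgatgagggtctT
These lie at chrM:8558-8572, chrM:8255-8269, chrM:12123-12137, chrM:9193-9207 and chrM:9976-9990, all on the heavy-strand transcript. In 7 mRNAs the genome encodes the whole stop position, and their log2 fold changes (TMM scaling) had a median of 1.39 and a range of 0.81 to 1.70. In the other 6, MT-ND1, MT-ND2, MT-CO3, MT-ND3, MT-ND4 and MT-CYB, the encoded part ends early, and the median was 0.96 with a range of 0.64 to 1.42. The ranges overlap: MT-ND4, with an incomplete stop codon, was at 1.42 beside 1.45 for MT-CO2, and MT-ATP6, with a complete one as annotated, was below 5 of the 6. MT-ATP6 shares its last base with the first base of MT-CO3, and both are cut from one precursor RNA. The annotation does not say which mRNA keeps that base. The place of MT-ATP6 among the 7, and the lower end of 0.81 that it sets, are therefore uncertain. This grouping was chosen after the values were seen and was not tested.

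The tRNAs were sparse. In 15 of the 21 no library had more than 40 counts per gene, and 8 did not pass the filter, with at most 18 counts in any library. These were MT-TF, MT-TV, MT-TQ, MT-TM, MT-TW, MT-TA, MT-TS1 and MT-TD. MT-TS1 had no read in GNE987 replicate 1, where 3 counts, the limit that a count of 0 allows, equal 0.176 CPM of the unscaled total. Mature tRNAs carry no poly(A) tail and are short, and libraries of polyadenylated RNA are known to hold few of them.

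MT-TN, MT-TC, MT-TP and MT-TY had more counts than the other tRNA genes, and all 4 belong to the light-strand transcript. Without strand marking, reads of a tRNA gene and of the heavy-strand RNA across it cannot be told apart. MT-TN, the asparagine tRNA gene, had 4668 and 3234 counts in the treated libraries, against 1031 and 1576 in the untreated ones, and MT-TC, the cysteine tRNA gene, had 4474 and 3922 in the treated libraries, against 1400 and 2249 in the untreated ones. MT-TP, the proline tRNA gene beside the non-coding control region, had 1445 and 1495 counts in the treated libraries, against 646 and 905 in the untreated ones. The gene sequences are shown in the sense of the tRNA, with the anticodon in capitals, for these and for MT-TA, the alanine tRNA gene that lies 1 base from MT-TN on the same strand and had few counts.
MT-TN: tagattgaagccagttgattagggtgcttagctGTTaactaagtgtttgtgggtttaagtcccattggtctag
MT-TC: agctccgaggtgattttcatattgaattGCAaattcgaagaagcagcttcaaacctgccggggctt
MT-TP: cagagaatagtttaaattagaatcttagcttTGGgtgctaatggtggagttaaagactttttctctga
MT-TA: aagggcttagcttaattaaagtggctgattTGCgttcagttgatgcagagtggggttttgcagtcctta
They lie at chrM:5657-5729, chrM:5761-5826, chrM:15956-16023 and chrM:5587-5655, all on the light-strand transcript. MT-TA had 6 and 2 counts in the treated libraries, against 4 and 10 in the untreated ones. MT-TN and MT-TC are 31 bases apart, and MT-TC overlaps MT-TY, the tyrosine tRNA gene, by a single base.

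In CPM, MT-TN was at 306 and 234 in the treated libraries, against 46.3 and 77.8 in the untreated ones, a log2 fold change of 2.12 ± 0.29 (edgeR adjusted p = 0.0024). MT-TC stood at 294 and 284 CPM in the treated libraries and at 62.9 and 111 CPM in the untreated ones (1.73 ± 0.28, adjusted p = 0.0039). MT-TP stood at 94.9 and 108 CPM in the treated libraries and at 29.002 and 44.689 CPM in the untreated ones (1.46 ± 0.23, adjusted p = 0.0034). The groups did not overlap for any of the 3. MT-TN had the highest fold change of all 28 tested mitochondrial transcripts. Relative to the mitochondrial mRNAs MT-TN was still higher, at 1.01 (edgeR adjusted p = 0.0012), and so was MT-TC, at 0.62 (adjusted p = 0.0462). Without GNE987 replicate 1 these relative calls were lost (adjusted p = 0.369 for MT-TN and 0.524 for MT-TC), and likewise without GNE987 replicate 2 (0.0953 and 0.364). That of MT-TC was also lost without a filter (adjusted p = 0.0964).

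MT-TY and MT-TI, the tyrosine and isoleucine tRNA genes, were the other 2 called higher. MT-TY had 184 and 245 counts in the treated libraries, against 110 and 178 in the untreated ones (1.12 ± 0.35, edgeR adjusted p = 0.031), and its call was lost with library size alone (adjusted p = 0.0651) and without either treated library (0.0614 and 0.187). MT-TI stood at 1.84 and 2.03 CPM in the treated libraries and at 0.763 and 1.04 CPM in the untreated ones (1.10 ± 0.39, adjusted p = 0.0466). That call was also lost with DESeq2 (adjusted p = 0.123), library size alone, no filter, robust estimation, the replicate block (adjusted p = 0.115), and without either treated library or untreated replicate 1. The remaining 8 tested tRNAs, MT-TL1, MT-TG, MT-TR, MT-TH, MT-TS2, MT-TL2, MT-TE and MT-TT, did not pass the test. MT-TL1, a leucine tRNA gene, had 46 and 60 counts in the treated libraries, against 19 and 42 in the untreated ones (edgeR adjusted p = 0.0584), a log2 fold change of 1.33 ± 0.51. It passed in edgeR with DESeq2-type size factors (adjusted p = 0.0472), upper-quartile scaling (0.0359), the replicate block (0.0454) and without untreated replicate 2, where it was at 2.10 (1.56e-06). The others of the 8 had at most 64 counts in any library. MT-TG, the glycine tRNA gene, had 15 and 16 counts in the treated libraries, against 32 and 25 in the untreated ones (-0.32 ± 0.39, edgeR adjusted p = 0.482), and was the only tested member with a negative fold change. Relative to the mitochondrial mRNAs it was lower, at -1.50 ± 0.60 (edgeR adjusted p = 0.0192), a call lost without a filter (adjusted p = 0.0586). It was also lost when either GNE987 library was left out (0.228 without replicate 1 and 0.212 without replicate 2), as when untreated replicate 1 was (0.0691). Without untreated replicate 2, tRNAs called higher were 8 of those tested.

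Of the nuclear genes for transcription of mitochondrial DNA, more fell than rose. Of 10 tested genes of mitochondrial transcription 3 were higher and 6 lower, where 34.4% of all genes tested were higher and 37.2% lower, with a median log2 fold change of -1.79. POLRMT, the polymerase, had 66.6 and 67.7 CPM in the treated libraries and 248 and 224 CPM in the untreated ones, a change of -1.81 ± 0.13 (edgeR adjusted p = 0.00037). Its initiation partner TFB2M had 6.04 and 6.52 CPM in the treated libraries and 23.5 and 19.3 CPM in the untreated ones (-1.77 ± 0.18), and the elongation factor TEFM had 1.84 and 1.59 CPM in the treated libraries and 6.33 and 5.73 CPM in the untreated ones (-1.81 ± 0.28). TFAM, which packs mitochondrial DNA and bends it at promoters, was higher, with 109 and 111 CPM in the treated libraries and 45.9 and 55.0 CPM in the untreated ones (1.12 ± 0.13, edgeR adjusted p = 0.0016). In none of the 4 did the groups overlap, so the transcripts of the initiation machinery did not move as one. TFB1M, which methylates the small mitochondrial rRNA, was at -2.26 ± 0.18, and MTERF4, which acts with an rRNA methyltransferase in ribosome assembly, at -2.38 ± 0.19.

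Genes of mitochondrial RNA processing were 3 higher and 17 lower of 22 tested (median -1.22), beside 34.4% and 37.2% of all genes tested. MTPAP, the mitochondrial poly(A) polymerase, had 4.005 and 3.768 CPM in the treated libraries and 31.96 and 25.83 CPM in the untreated ones (-2.89 ± 0.19, edgeR adjusted p = 0.00033). MRM2 and MRM3, which methylate the large mitochondrial rRNA, were at -2.69 ± 0.17 and -3.08 ± 0.15, and TRIT1, which modifies tRNAs, at -2.99 ± 0.17. The message of the enzyme that tails mitochondrial mRNAs was thus lower where those mRNAs were higher.

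Genes of mitochondrial mRNA stability and decay were 2 higher and 11 lower of 15 tested (median -1.28), beside 34.4% and 37.2% of all genes tested. Stabilising and degrading factors were both among those that fell. LRPPRC had 128 and 120 CPM in the treated libraries and 91.0 and 97.4 CPM in the untreated ones (0.39 ± 0.12, edgeR adjusted p = 0.027). Its partner SLIRP had 14.6 and 17.6 CPM in the treated libraries and 92.6 and 72.9 CPM in the untreated ones (-2.36 ± 0.18, adjusted p = 0.00044), so the messages of this pair moved in opposite directions. The mitochondrial degradosome consists of the nuclease PNPT1 and the helicase SUPV3L1. PNPT1 had 6.96 and 4.06 CPM in the treated libraries and 52.3 and 41.6 CPM in the untreated ones (-3.08 ± 0.28), and SUPV3L1 had 5.19 and 5.87 CPM in the treated libraries and 44.9 and 37.7 CPM in the untreated ones (-2.90 ± 0.17). FASTKD2, which binds the large rRNA and MT-ND6 RNA, was the lowest of those named at -4.85 ± 0.31, and the RNA helicase DHX30 was at -2.25 ± 0.16.

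Genes of mitochondrial DNA replication and the nucleoid were 6 higher and 9 lower of 19 tested (median -0.46). Over all genes tested 34.4% were higher and 37.2% lower. SSBP1, the single-strand DNA-binding protein of the mitochondrion, had 9.65 and 7.75 CPM in the treated libraries and 126 and 99.8 CPM in the untreated ones (-3.69 ± 0.19, edgeR adjusted p = 0.00029). The nuclease EXOG was at -4.21 ± 0.20, the nucleoid protein ATAD3A at -1.88 ± 0.12 and DNA2, a nuclease and helicase, at -1.72 ± 0.13. These 4 are the genes of the list with the smallest p, and all were lower. The 6 called higher included POLG at 1.61 ± 0.21 (adjusted p = 0.0022) and POLG2 at 0.82 ± 0.12 (adjusted p = 0.0031), so the list was split. Of 8 tested regulators of mitochondrial biogenesis 4 were higher and 3 lower (median 0.33), beside the same shares of all genes tested. NRF1, a transcription factor of many nuclear mitochondrial genes, had 59.0 and 64.4 CPM in the treated libraries and 25.3 and 30.7 CPM in the untreated ones (1.14 ± 0.14, adjusted p = 0.0019). GABPA was at -0.88 ± 0.14, and the coactivators PPRC1 and PPARGC1B at -1.15 ± 0.13 and -1.91 ± 0.25.

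Taken over these 5 lists, 18 genes were higher and 46 lower of 74 tested, beside 34.4% and 37.2% of all genes tested, with a median of -0.99 beside -0.03 over all genes. Without untreated replicate 2 the counts were 18 and 49, beside 40.3% and 38.6% of all genes. Without GNE987 replicate 1 those higher were 11 and without GNE987 replicate 2 they were 10, where genes called higher over the whole table were 2206 and 2209, against 5467 with all libraries.

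The nuclear partners of the mitochondrially encoded subunits were mostly lower or not called. The counts per complex stand beside 34.4% higher and 37.2% lower over all genes tested. Of 37 tested nuclear subunits of complex I 3 were higher and 24 lower (median -0.86), where the 7 mitochondrial ones were all higher. NDUFS3, a core subunit of the arm that faces the matrix, had 21.8 CPM in both treated libraries and 118 and 96.4 CPM in the untreated ones (-2.30 ± 0.15, edgeR adjusted p = 0.00032), and NDUFS4 and NDUFAB1 were at -2.99 ± 0.21 and -2.08 ± 0.15. For complex III 0 were higher and 6 lower of 9 (median -0.71), with the core subunit UQCRC1 at -2.17 ± 0.15, UQCRC2 at -1.71 ± 0.14, cytochrome c1 (CYC1) at -2.11 ± 0.15 and UQCR11 at -1.15 ± 0.13.

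Complex IV was split, with 2 nuclear subunits higher and 2 lower of 11 tested (median 0.13). COX6C had 303 and 275 CPM in the treated libraries and 171 and 194 CPM in the untreated ones (0.67 ± 0.14, edgeR adjusted p = 0.0082), and COX6B1 was at 0.47 ± 0.14. COX5A had 62.3 and 66.3 CPM in the treated libraries and 158 and 131 CPM in the untreated ones (-1.17 ± 0.14, adjusted p = 0.0017), and NDUFA4 was at -0.88 ± 0.13. For ATP synthase 3 were higher and 7 lower of 15 (median -0.22), with ATP5PB at -1.86 ± 0.14, ATP5MC1 at -1.55 ± 0.13, ATP5F1C at -1.33 ± 0.13 and ATP5F1D at -1.05 ± 0.12. Over the 4 lists 8 were higher and 39 lower of 72 (median -0.57), beside 34.4% and 37.2% of all genes tested. Without untreated replicate 2 the counts were 12 and 42, beside 40.3% and 38.6% of all genes. Those higher were 3 without GNE987 replicate 1 and 4 without GNE987 replicate 2, in which the whole table also had fewer higher (2206 and 2209), and with other scalings or a filter at 10 CPM between 4 and 14.

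**Figure D5:**
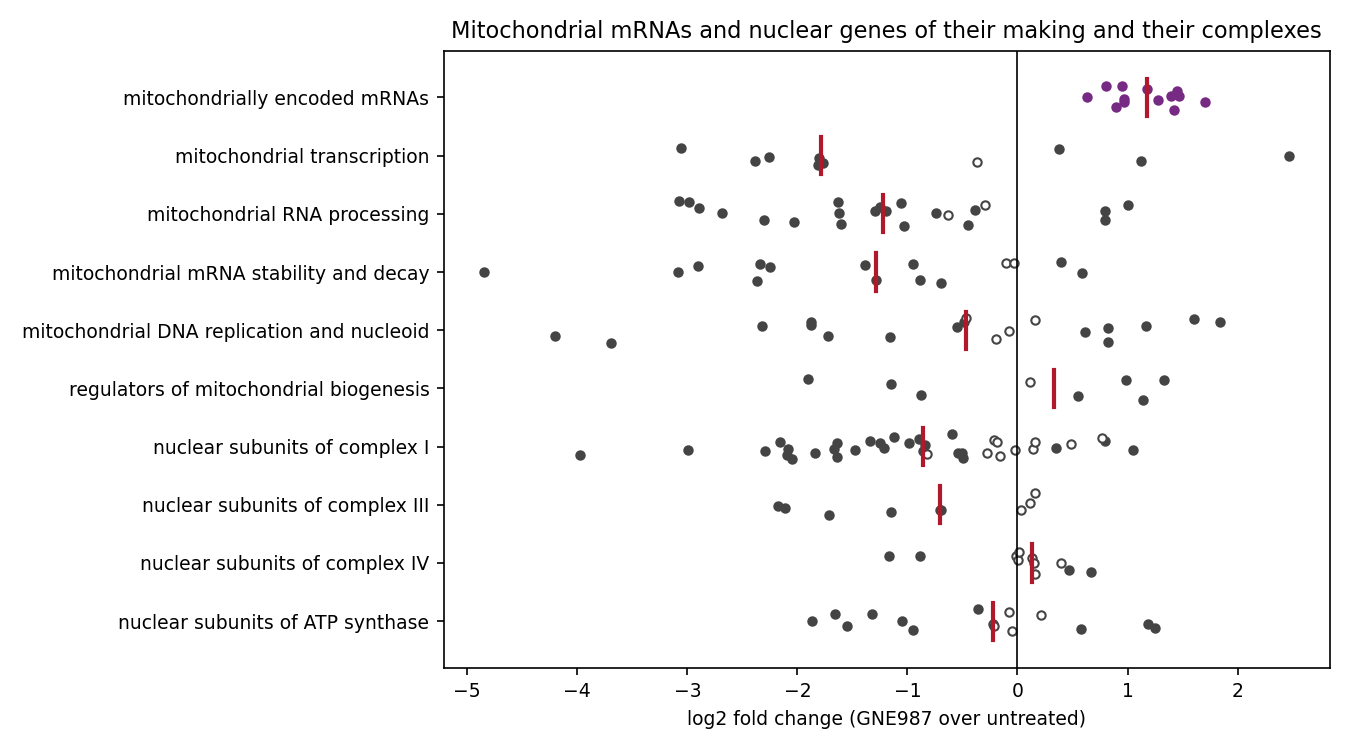
Log2 fold change (GNE987 over untreated) of each tested gene in the 13 mitochondrially encoded mRNAs (top row) and in 9 lists of nuclear genes, with filled points at an adjusted p under 0.05 and a red bar at the median. The medians are 1.18 for the mitochondrial mRNAs, -1.79 for mitochondrial transcription and -0.86 for nuclear complex I subunits.

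Copies of mitochondrial genes in the nuclear genome can share reads with the members. They had 27 rows, of which 5 were tested and 3 were called higher, and 5 were called higher without untreated replicate 2. MTATP6P1, MTND2P28 and MTCO1P12, which lie together on chromosome 1, held most of their counts, with 98.9% in the library where their part was lowest, with log2 fold changes of 1.52 ± 0.22, 0.87 ± 0.16 and 1.96 ± 0.23. All these copies together had 0.797% and 0.633% of the mitochondrial count in the treated libraries, against 0.643% and 0.636% in the untreated ones. How reads common to a member and a copy were divided is not known from the sources used here, so these 3 copies are reported as uncertain. The 3 called of 5 tested stand beside 34.4% called higher over all genes tested.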

How the data were processed

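Per the labels' protocols, total RNA was isolated with TRIzol and polyadenylated RNA was made into libraries with a TruSeq kit, which leaves the strand unmarked. HISAT2 2.2.0 and hg38 are named in the submitters' processing notes. The sources used here name no counting tool, annotation or strand setting. Per gene, the authors deposited whole-number counts per library, a normalized signal, FPKM values, and their own log2 fold change and p-value. Only the deposited counts entered the tests here. All 26733 identifiers matched GENCODE 29, which gave coordinates, lengths and sequences on GRCh38, and 20 names turned into dates by a spreadsheet were restored from the identifier.

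The filter was filterByExpr of edgeR 4.0.16 (minimum count 10, minimum total 15), which removed 10823. The quasi-likelihood F test was run on TMM-scaled counts in R 4.3.3, GNE987 over untreated, with 2 residual degrees of freedom and Benjamini-Hochberg adjustment over all genes tested. SEs were derived from the fold change and its F. Shares of library counts were compared by exact permutation. The procedure was tested on simulated data in which few genes changed, equally in both directions, with the same dispersion for all genes. In the real data 71.6% of genes tested were called, a setting that the simulation did not cover. The alternatives were other scalings and filters, the Wald test of DESeq2 1.42.0, robust estimation, a block for the replicate number, other denominators for shares, and each library left out in turn.

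The members and gene lists were chosen with earlier results of these data known. All mitochondrial rows are accounted for. Of nuclear genes, POLRMT, TFAM, TFB2M, TEFM, LRPPRC, SLIRP, PNPT1, SUPV3L1 and MTPAP and up to 4 genes with the smallest p per list are named, and of control and marker lists up to 3 with the highest mean. POLG and POLG2 are named besides, since the other named genes of their list were all lower. Some items under this rule are not reported here.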

Additional observations from a re-analysis of the deposited data

How the results depend on the processing

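No fold change reversed. Of 169 values for the mitochondrial mRNAs under 13 alternatives, 162 kept direction and call and 7 lost the call, with values given beside MT-CO3, MT-ND3, MT-ND2, MT-ATP6 and MT-CYB. Called counts moved as follows. With library size alone 1 rRNA, 3 tRNAs and 4 nuclear respiratory subunits were higher; with upper-quartile scaling 8 tRNAs and 14 subunits; with a filter at 10 CPM 14 subunits; without a filter 1 rRNA. For mRNAs relative to each other, 0 were higher and 1 lower without a filter, and 1 was lower with robust estimation.

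The labels do not say what libraries of the same replicate number share. Their deviations from their group means correlated at -0.006, which with 2 libraries per group cannot settle whether the samples are paired. With the number as a block 9801 genes were called, with 13 mRNAs, 2 rRNAs and 5 tRNAs higher, and relative to each other 1 mRNA was higher and 1 lower.

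With 1 library left out, the lone library of its group is assumed to vary like the other pair. Over these settings genes called ranged from 6306 to 13341, those higher from 2206 to 6816 and those lower from 4100 to 6525. Mitochondrial mRNAs higher ranged from 9 to 13, rRNAs from 1 to 2 and tRNAs from 3 to 8. Nuclear genes of mitochondrial RNA and DNA upkeep ranged from 10 to 18 higher and from 38 to 50 lower, and nuclear subunits from 3 to 12 higher and from 30 to 42 lower. Relative to each other 0 to 6 mRNAs were higher and 0 to 5 lower. The difference in share of counts ranged from 2.95 to 4.06 percentage points for all mitochondrial transcripts. The cause of these moves was not tested. Depth limits the tRNAs, of which 8 had too few counts to test. No spike-in fixes the absolute level.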
